A study of Mus musculus with 62 samples.

Results

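The astrocyte genes described here are 10 genes measured in prefrontal cortex and striatum: Gfap, Aqp4, Slc1a2, Slc1a3, Aldh1l1, Gja1, S100b, Aldoc, Ntsr2 and Slc27a1. They were found by mouse Entrez identifier, 10 of the 17653 genes listed for prefrontal cortex and of the 17874 listed for striatum. Of these, 8 are canonical astrocyte markers, whereas Ntsr2 and Slc27a1 were chosen by their higher level in striatum at 6 mg/kg. The striatal values of Ntsr2 and Slc27a1 are therefore given as a description, with no test.

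The libraries came from female C57BL/6 mice given the MARBLES mixture of polychlorinated biphenyls (PCBs) by mouth. RNA was taken from tissue punches of each brain region and from liver. In each brain region there were 4 vehicle libraries (0 mg/kg) and 5, 6 and 6 libraries for the doses of 0.1, 1 and 6 mg/kg. The age of the mice, the length of exposure and the pooling of animals are not given in the sources used here. Brain library totals ran from 8283032 to 12135200 counts, and the 10 genes had between 397 and 32141 counts in each brain library.

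Astrocytes are glial cells that take up glutamate and potassium around synapses, wrap blood vessels with their end feet and couple to each other through gap junctions. The members cover these roles. Gfap encodes the intermediate filament that astrocytes raise when they become reactive. Aqp4 is the water channel of the end feet and Gja1 the main gap junction protein. Slc1a2 and Slc1a3 are the glutamate transporters of astrocytes. Aldh1l1 is a folate enzyme, Aldoc a brain isoform of the glycolytic enzyme aldolase, and S100b a calcium-binding protein that some oligodendrocytes also make. Ntsr2 is a neurotensin receptor and Slc27a1 a fatty acid transport protein.

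On mouse build GRCm38.p6, Gfap lies on chromosome 11 (102887336 to 102897200, minus strand), as does Aldoc (78323073 to 78327781, plus strand). Slc1a2 lies on chromosome 2 (102658239 to 102790784, plus), Slc1a3 on chromosome 15 (8634124 to 8710807, minus) and Aldh1l1 on chromosome 6 (90550768 to 90599171, plus). Gja1 (56377300 to 56390419, plus) and S100b (76253836 to 76261319, plus) are on chromosome 10. Ntsr2 lies on chromosome 12 (16653443 to 16660236, plus) and Slc27a1 on chromosome 8 (71568728 to 71587307, plus).

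The upstream sequences of 4 members are shown, Gfap and Slc1a2 because they passed the test between regions in vehicle mice, and Ntsr2 and Slc27a1 because they are the picked genes. They come from RefSeq, build GRCm38.p6, which held upstream windows for 9 of the 10 members. Each is the part of the 250 bases before a transcription start that holds no annotated exon, written 5′ to 3′ on the strand of the gene. Capitals mark a match to TTGGC or its reverse complement, the short element bound by nuclear factor I proteins, which act in astrocyte development; the stretches of Gfap and Slc27a1 hold none. Slc27a1 has 3 windows in the table. The first, from which the stretch is taken, holds 2 matches beyond the printed bases, and the third, not shown, holds 2. The Gfap stretch is chr11:102897201-102897450 (minus strand), directly before the gene. The Slc1a2 stretch, chr2:102706188-102706355, lies inside the gene before a downstream start. The Ntsr2 stretch is chr12:16653220-16653381 and the Slc27a1 stretch chr8:71568621-71568727.
Gfap: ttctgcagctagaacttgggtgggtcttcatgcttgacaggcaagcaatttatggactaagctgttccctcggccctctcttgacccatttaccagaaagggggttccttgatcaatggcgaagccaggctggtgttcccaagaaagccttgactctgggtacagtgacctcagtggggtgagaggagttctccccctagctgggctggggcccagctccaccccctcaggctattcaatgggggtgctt
Slc1a2: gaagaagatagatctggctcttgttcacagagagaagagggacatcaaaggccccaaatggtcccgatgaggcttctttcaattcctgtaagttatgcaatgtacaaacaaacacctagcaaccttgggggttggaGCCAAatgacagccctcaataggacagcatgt
Ntsr2: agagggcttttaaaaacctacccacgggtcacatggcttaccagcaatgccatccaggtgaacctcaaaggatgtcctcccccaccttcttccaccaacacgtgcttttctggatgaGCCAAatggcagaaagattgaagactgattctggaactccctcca
Slc27a1: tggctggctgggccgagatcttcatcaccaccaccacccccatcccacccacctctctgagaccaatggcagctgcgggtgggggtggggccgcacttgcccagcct

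Over whole windows of 250 bases, searched on both strands, TTGGC matched 6 of the 12 windows of members and 41.5% of all 32851 windows in the RefSeq table. The sequence ACAAT, the core bound by SOX proteins, matched 2 of the 12 windows and 27.7% of all windows. The palindrome TTCNNNGAA, bound by STAT proteins, matched 3 of the 12 windows, each of a different member, and 7.02% of all windows. These matches were TTCCCAGAA in Ntsr2, 62 bases before the start, TTCCAAGAA in Slc1a3, 96 bases before, and both TTCAGTGAA and TTCCAGGAA in a window of Aldoc. No window of Gfap, Gja1 or Aldh1l1 held any of the 3 motifs. The motifs do not overlap each other in these windows.

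Levels are CPM, counts relative to library size, after TMM scaling (a trimmed mean of log ratios between libraries) over both brain regions. Among genes, they are compared per kilobase of the longest annotated transcript. In vehicle cortex Aldoc was highest, at 286 ± 9.11 CPM per kilobase (SD, n = 4). Slc1a2 followed at 224 ± 22.3, then Slc1a3 at 108 ± 5.61 and S100b at 51.9 ± 3.99, with no overlap between neighbours in this order. Gja1 (37.3 ± 2.06), Gfap (36.8 ± 2.77), Ntsr2 (34.7 ± 2.09), Slc27a1 (25.9 ± 5.02), Aqp4 (19.1 ± 3.72) and Aldh1l1 (14.9 ± 0.62) came next, and each of these overlapped its neighbour.

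In vehicle striatum the top 3 were the same, Aldoc at 290.3 ± 19.6, Slc1a2 at 152 ± 2.30 and Slc1a3 at 121 ± 9.20 CPM per kilobase (SD, n = 4), again without overlap. Gfap (51.7 ± 3.66), S100b (48.5 ± 11.5), Ntsr2 (45.99 ± 2.35), Gja1 (41.5 ± 6.52) and Slc27a1 (35.4 ± 6.14) overlapped in turn. Aldh1l1 (15.9 ± 1.79) and Aqp4 (15.7 ± 2.84) were lowest and overlapped each other.

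The comparison of regions in vehicle mice asked where these genes differ without PCB exposure. Gfap was higher in striatum than in prefrontal cortex, and Slc1a2 was lower. These 2 of the 8 markers passed an adjusted p of 0.05 in edgeR's quasi-likelihood test with Benjamini-Hochberg adjustment, where 22.3% of all 14515 genes tested passed. Groups did not overlap for the same 2 markers, against 24.5% of all genes. Ntsr2 and Slc27a1 are given here as a description with no test, because the vehicle striatum libraries are the baseline of the comparison on which they were picked.

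Gfap was 97.7, 108, 93.1 and 91.5 CPM in the vehicle cortex libraries and 137, 150.4, 128 and 132 in the vehicle striatum libraries. Every striatal value was above every cortical one, a log2 difference of 0.51 (SE 0.092, edgeR adjusted p = 0.00148). In a fit of all 42 brain libraries the difference was 0.49 and did not pass (edgeR adjusted p = 0.13). Slc1a2 was 2876, 2759, 2399 and 2357 CPM in cortex and 1725.5, 1789, 1760.2 and 1769.7 in striatum. The cortical values spread more widely but stayed above all striatal ones, with a log2 difference of -0.55 (SE 0.094, edgeR adjusted p = 0.00104). Slc1a3, the other glutamate transporter, showed the opposite sign at 0.19 (SE 0.091) and missed the threshold (edgeR adjusted p = 0.16).

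Ntsr2 was 95.6, 87.55, 99.0 and 100.4 CPM in vehicle cortex and 124, 129, 134 and 119 in vehicle striatum, a log2 difference of 0.42 (SE 0.087) without overlap. Slc27a1 was 78.6, 64.2, 103 and 87.3 CPM in cortex and 96.2, 102, 141 and 115 in striatum. These ranges overlapped, and the log2 difference was 0.47 (SE 0.15), and 0.40 to 0.51 with 1 animal left out. The other 5 markers had log2 differences from -0.27 (Aqp4, SE 0.15, edgeR adjusted p = 0.24) to 0.17 (Gja1, SE 0.11, edgeR adjusted p = 0.30), and none of them passed. With the shared animal number as a replicate block, Aqp4 passed (-0.26, edgeR adjusted p = 0.027).

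The same direction was counted over animals at every dose, taking libraries with the same number in both regions as the same mouse. Slc1a2 was lower in striatum in 20 of 21 animals, with a mean log2 difference of -0.50 ± 0.31 (SD). Gfap was higher in striatum in 18 of 21 animals (0.51 ± 0.43, SD), and the exceptions were 2 animals at 0.1 mg/kg and 1 at 1 mg/kg. Slc1a3 was also higher in 18 of 21 (0.20 ± 0.17, SD) and Gja1 in 17 of 21 (0.21 ± 0.29, SD), although neither passed in vehicle mice, and Aqp4 was lower in 15 of 21. Among the 15 animals not at 6 mg/kg, Ntsr2 was higher in striatum in 15 (0.36 ± 0.15, SD) and Slc27a1 in 11 (0.24 ± 0.25, SD). Slc27a1 was the less steady of the pair: at 1 mg/kg it was higher in striatum in only 2 of 6 animals. Aldoc, S100b and Aldh1l1 had no common direction, with 13, 10 and 14 of 21 animals higher in striatum.

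**Figure D1:**
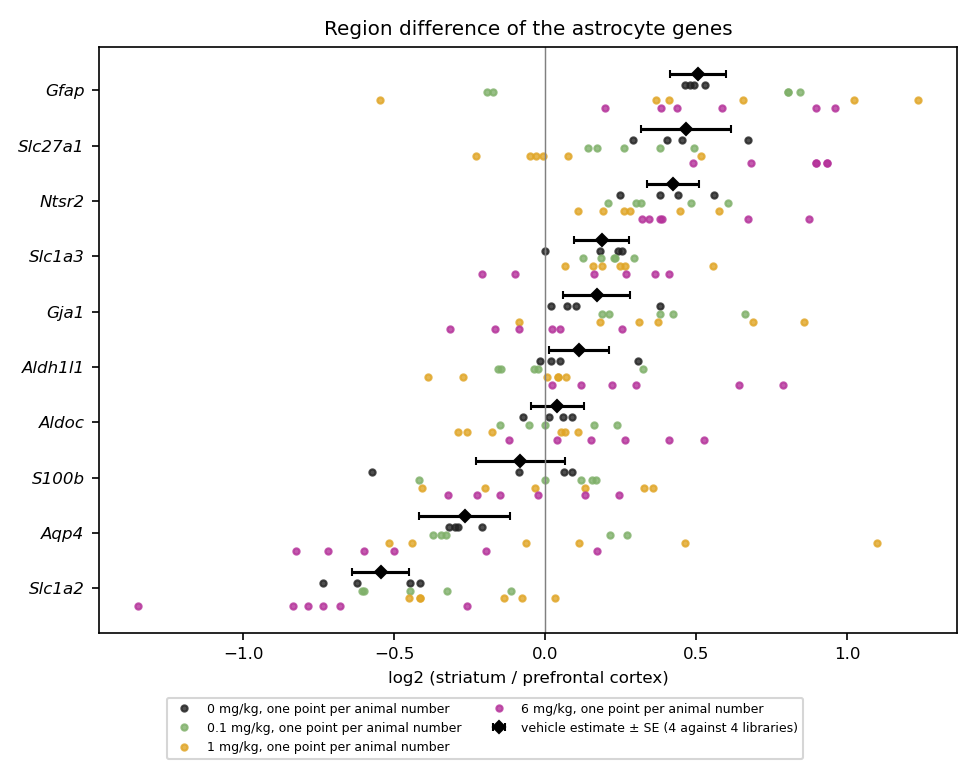
The horizontal axis is the log2 ratio of striatum to prefrontal cortex for each gene, with 1 coloured point per animal number and dose, and black diamonds for the estimate in vehicle libraries with its SE. The vehicle estimates of Gfap, Slc27a1 and Ntsr2 lie to the right of 0 and that of Slc1a2 to the left. Single animals lie on the other side for Gfap (3 of 21) and Slc1a2 (1 of 21), and for Slc27a1 in 4 of the 15 not at 6 mg/kg. Points of Ntsr2 and Slc27a1 at 6 mg/kg hold the striatal values that chose them. The points of Gfap and Aqp4 are widely spread at 1 mg/kg.

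Cell type markers were read beside this difference, because bulk tissue cannot separate fewer cells of a type from less RNA per cell. All 10 oligodendrocyte markers were higher in vehicle striatum (median log2 difference 1.02), and their summed level was 2587 to 3856 CPM in cortex against 4669 to 7075 in striatum. Of 12 neuron markers, 7 were lower and 2 higher in striatum (median -0.41). All 10 striatal projection neuron markers had positive values and 3 passed, but their summed level overlapped between regions (1516 to 3938 CPM in cortex, 3640 to 7555 in striatum), with no marker at 0 in either region. Ependymal and choroid plexus markers summed to 13.3 to 22.5 CPM in cortex, with 2 of the 8 genes at 0, and to 54.2 to 712 CPM in striatum, with none at 0. The part of these markers in the astrocyte gene differences was not tested.

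Of 60 other astrocyte genes, 19 were higher and 3 lower in vehicle striatum, where 22.3% of all genes passed, 1601 higher and 1629 lower. The list had a median of 0.24 where the median of all genes was 0.020. The smallest p values belonged to Itih3, a carrier of extracellular hyaluronan, at 14.3 ± 2.36 CPM in cortex and 81.7 ± 18.8 in striatum (SD, n = 4; log2 difference 2.53, SE 0.17, edgeR adjusted p = 2.32e-06). Next came Slc6a11, a GABA transporter, at 149 ± 3.43 and 391 ± 88.4 CPM (log2 difference 1.40, SE 0.13, edgeR adjusted p = 2.00e-05). Agt, the angiotensin precursor, was 8.54 ± 0.35 and 63.9 ± 27.2 CPM (log2 difference 2.92, SE 0.26, edgeR adjusted p = 5.82e-05). Each of these differences was larger than that of any of the 10 members. Of 28 reactive astrocyte genes tested, 7 were higher and 2 lower (median 0.33), among them Amigo2 at 1.74 (SE 0.24, edgeR adjusted p = 0.000328) and S100a10 at -0.99 (SE 0.15, edgeR adjusted p = 0.000368). Amigo2 encodes an adhesion molecule and S100a10 a partner of annexin.

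The dose comparisons asked whether these genes differed with PCB dose in either region. All comparisons with vehicle within a region share its 4 vehicle libraries, and the p values measure the spread between libraries within all 4 dose groups of that region, which may be technical. In prefrontal cortex, 0 of the 10 members passed at 6, 1 or 0.1 mg/kg against vehicle, at 6 against 0.1 mg/kg, or in a trend across the dose groups, in edgeR's test. Across all 14838 genes tested in cortex the share passing was 0% for each comparison with vehicle (1376, 1230 and 954 genes at an unadjusted p under 0.05 for 6, 1 and 0.1 mg/kg), 0.108% for 6 against 0.1 mg/kg and 0.0202% for the trend. The members' log2 differences at 6 mg/kg ran from -0.079 (Slc1a2) to 0.33 (Ntsr2), with a median of 0.032 where that of all genes was 0.0044.

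Ntsr2 had the smallest p of the members in cortex. Its 4 vehicle values are given above. The 0.1 mg/kg libraries had 87.7, 105, 117, 101 and 93.4 CPM. Those given 1 mg/kg had 97.4 (lowest), 107 (median) and 114 (highest), and those given 6 mg/kg had 113, 119 and 137. Every value at 6 mg/kg was above every vehicle value, whereas the middle doses overlapped vehicle. This was the only 1 of the 10 members whose groups did not overlap at 6 mg/kg, against 3.01% of all genes. The log2 difference at 6 mg/kg was 0.33 (SE 0.086, unadjusted p = 0.00067, edgeR adjusted p = 0.24), and the trend per dose step was 0.11 (SE 0.026, edgeR adjusted p = 0.10). At 6 mg/kg the adjusted p was 0.048 with DESeq2 and 0.037 with 1 surrogate variable added to edgeR, so the call depends on the tool and the model. The cortical libraries did not enter the choice of Ntsr2, but they carry the same animal numbers as the striatal ones that did.

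S100b was 81.7, 81.2, 68.99 and 75.9 CPM in vehicle cortex and 79.7, 91.5 and 107 (lowest, median, highest) at 6 mg/kg. These groups overlapped, and the log2 difference of 0.25 (SE 0.12, unadjusted p = 0.046) did not pass (edgeR adjusted p = 0.53). Slc27a1 was 90.6, 103 and 111 CPM at 1 mg/kg, overlapping vehicle, with a log2 difference of 0.30 (SE 0.11, unadjusted p = 0.012, edgeR adjusted p = 0.59). Leaving out 1 library gave 0.19 to 0.42. At 6 mg/kg the cortical level of Slc27a1 was 78.3, 86.7 and 106 CPM, overlapping vehicle (log2 difference 0.096, SE 0.11). With 1 library left out, that difference ran from -0.010 to 0.22. Gfap was 90.6, 113 and 149 CPM at 6 mg/kg (log2 difference 0.23, SE 0.20, and 0.14 to 0.29 with 1 library left out). Its widest spread was at 0.1 mg/kg, where 1 library reached 187 CPM and the others lay between 84.7 and 127. The glutamate transporters, Aqp4, Gja1, Aldh1l1 and Aldoc had log2 differences between -0.079 and 0.056 at 6 mg/kg, each within 1 SE of 0.

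**Figure D2:**
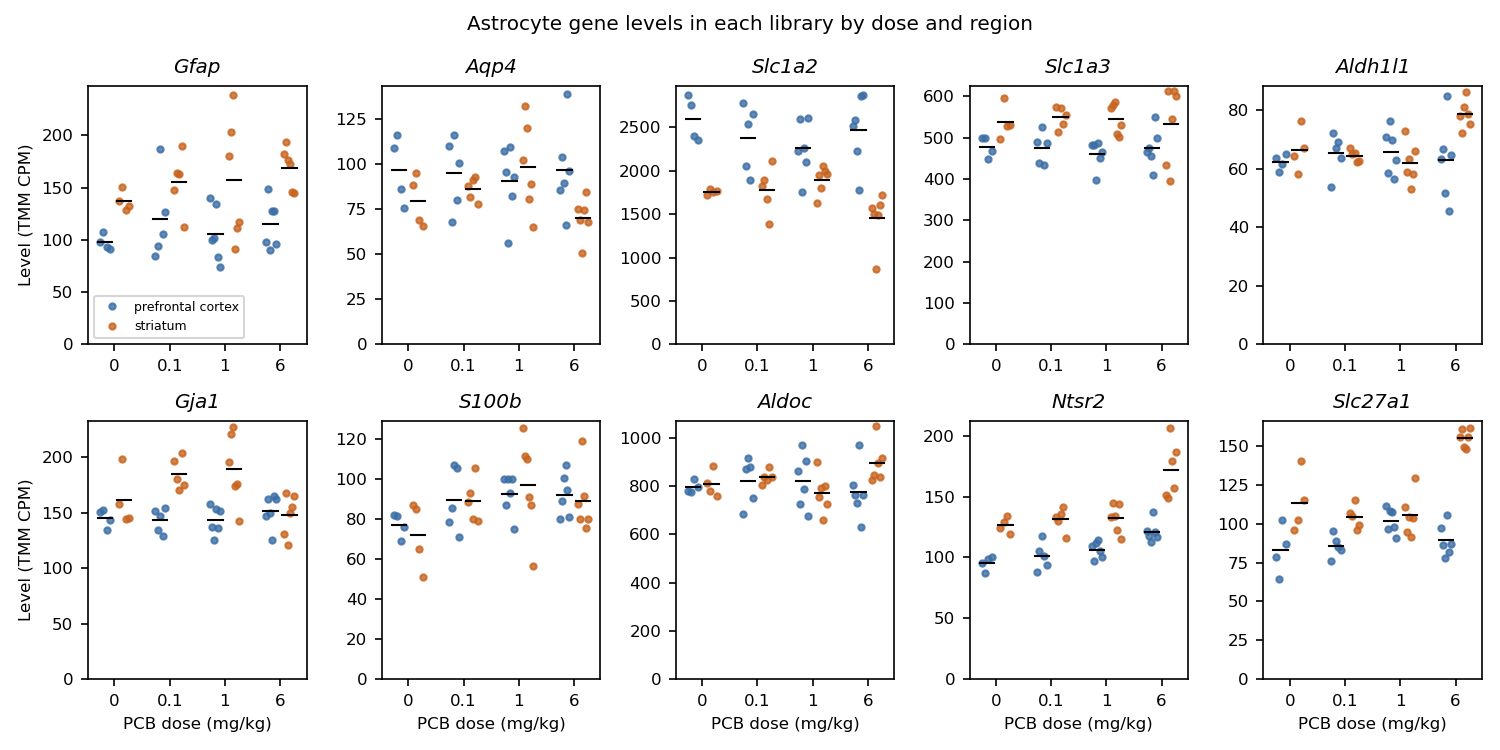
Each panel plots 1 gene, with the level in TMM-scaled CPM on the vertical axis and the PCB dose in mg/kg on the horizontal axis; points are libraries (blue cortex, orange striatum) and black bars are group means. Slc27a1 and Ntsr2 in striatum stand highest at 6 mg/kg, the values that chose them, and 1 striatal library of Slc1a2 at 6 mg/kg lies at 873 CPM.

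In striatum, 0 of the 8 markers passed against vehicle at any dose, at 6 against 0.1 mg/kg, or in the trend. The share of all 15118 genes passing was 0% in each comparison with vehicle (2377, 1113 and 383 at an unadjusted p under 0.05 for 6, 1 and 0.1 mg/kg) and 0% in the trend (1973 unadjusted). For 6 against 0.1 mg/kg it was 2.91%. At 6 mg/kg against vehicle the groups overlapped for all 8 of these members, and 3.73% of all genes did not overlap. The 8 log2 differences split evenly, 4 positive and 4 negative, with a median of 0.068 where that of all genes was 0.010.

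Ntsr2 and Slc27a1 were picked on their striatal values at 6 mg/kg, given here beside the lower doses. The 0.1 mg/kg libraries had 133, 129.5, 135.5, 141 and 116 CPM of Ntsr2, the 1 mg/kg libraries 115, 133 and 145 (lowest, median, highest), and the 6 mg/kg libraries 149, 168 and 206. Slc27a1 was 107, 105, 116, 95.9 and 99.4 CPM in the 0.1 mg/kg libraries, 91.6, 104 and 129.6 in the 1 mg/kg libraries, and 148, 156 and 161 in the 6 mg/kg libraries. Both genes had all 6 values at 6 mg/kg above every vehicle value. The fitted log2 differences between the groups were 0.44 (SE 0.096) for Ntsr2 and 0.45 (SE 0.10) for Slc27a1, whose highest vehicle value, 141 CPM, lay close to its lowest at 6 mg/kg, 148 CPM. The lower doses share the vehicle libraries with that choice, so their values are a description too. Ntsr2 differed from vehicle by 0.059 (SE 0.095) at 1 mg/kg and 0.051 (SE 0.099) at 0.1 mg/kg, and Slc27a1 by -0.10 (SE 0.10) and -0.12 (SE 0.11).

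Aldh1l1 was the member with the smallest p among the 8 in striatum. It was 64.4, 58.3, 76.2 and 67.2 CPM in vehicle, 67.2, 64.9, 65.5, 62.4 and 62.6 with 0.1 mg/kg, 53.2, 61.1 and 72.9 (lowest, median, highest) with 1 mg/kg, and 72.3, 78.3 and 86.3 with 6 mg/kg. The values at 6 mg/kg all lay above those at 0.1 mg/kg but overlapped vehicle through 1 vehicle library at 76.2. Against vehicle the log2 difference was 0.24 (SE 0.089, unadjusted p = 0.012, edgeR adjusted p = 0.23), and against 0.1 mg/kg it was 0.28 (SE 0.083, edgeR adjusted p = 0.060). The second comparison passed with DESeq2 (adjusted p = 0.020), and a slope over mg/kg in place of dose steps also passed in edgeR (adjusted p = 0.014), a model in which 1862 genes passed in all. With the GC content and length offset the difference from 0.1 mg/kg was 0.18 (edgeR adjusted p = 0.25), and over the alternative settings the adjusted p ran from 0.020 to 0.25.

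Gja1 was 158, 198, 144 and 145 CPM in vehicle striatum, 197, 180.4, 170.0, 203 and 175 at 0.1 mg/kg, and 120.3, 152 and 168 at 6 mg/kg. The gap junction gene thus lay lower at 6 than at 0.1 mg/kg in every library (log2 difference -0.32, SE 0.12, unadjusted p = 0.011, edgeR adjusted p = 0.11), while both doses overlapped vehicle. Over the alternative settings the difference ran from -0.38 with a surrogate variable (edgeR adjusted p = 0.016) to -0.19 with the GC content and length offset (edgeR adjusted p = 0.32). It and Aldh1l1 were the 2 of 8 members without overlap between 6 and 0.1 mg/kg, where 7.09% of all genes had none. Aqp4 was 88.4, 94.7, 68.9 and 65.5 CPM in vehicle and 50.3, 71.4 and 84.1 at 6 mg/kg, a log2 difference of -0.18 (SE 0.16, edgeR adjusted p = 0.59). It was -0.084 without vehicle animal 4 and -0.10 without animal 54. Aqp4 ranged from 64.8 to 132 CPM in the 1 mg/kg libraries, the widest spread of its groups.

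Slc1a2 had 1 striatal library that stood apart at 6 mg/kg, animal 54 at 873 CPM, with the other 5 between 1488 and 1726. All 6 were below the mean of the 4 vehicle values, although the highest, 1726, reached the lowest vehicle value. The log2 difference was -0.27 (SE 0.14, edgeR adjusted p = 0.34) with animal 54 and -0.16 (SE 0.097, edgeR adjusted p = 0.57) without it. S100b was 86.9, 84.9, 64.9 and 51.0 CPM in vehicle and 75.4, 83.7 and 119 at 6 mg/kg (log2 difference 0.30, SE 0.18, edgeR adjusted p = 0.41). Without vehicle animal 8, the lowest vehicle value, that difference was 0.17 (SE 0.18). Its largest difference from vehicle in either region was 0.43 (SE 0.18, unadjusted p = 0.027, edgeR adjusted p = 0.68), in striatum at 1 mg/kg. Gfap was 144.5, 174 and 194 CPM at 6 mg/kg, a log2 difference of 0.31 (SE 0.20, edgeR adjusted p = 0.46), and ran from 91.7 to 239 at 1 mg/kg. Slc1a3 (-0.012, SE 0.11) and Aldoc (0.15, SE 0.090) were the remaining members.

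**Figure D3:**
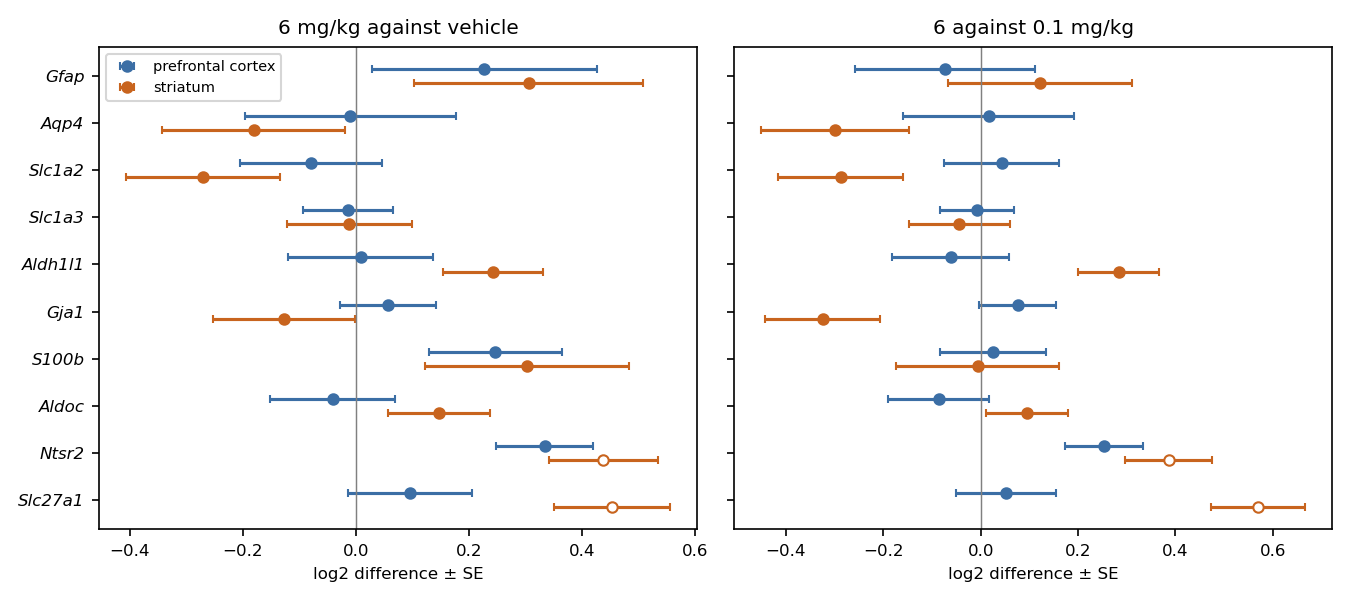
The horizontal axes give the log2 difference with its SE for 6 mg/kg against vehicle (left) and 6 against 0.1 mg/kg (right), in cortex (blue) and striatum (orange); open circles are the 2 genes picked on striatal values. Filled points reach from -0.32 (Gja1, right) to 0.33 (Ntsr2 in cortex, left).

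The effect of 6 mg/kg was also compared between regions in 1 model. None of the 8 markers passed (smallest edgeR adjusted p = 0.77), and 0% of the 15055 genes tested passed, with 967 at an unadjusted p under 0.05. Estimates included 0.23 for Aldh1l1 (95% interval -0.11 to 0.56) and -0.20 for Slc1a2 (-0.60 to 0.19). Leaving out 1 animal moved them between 0.15 and 0.30 and between -0.29 and -0.12. The intervals are wider than the effects within either region, so the regions are not shown to respond alike.

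Lists of other genes gave few calls by dose. At 6 mg/kg against vehicle, 0 of 60 other astrocyte genes passed in edgeR in either region (5 at an unadjusted p under 0.05 in cortex, 12 in striatum), with medians of 0.048 and 0.096. The smallest p belonged in cortex to Mt1, a metallothionein (log2 difference 0.40, SE 0.14, edgeR adjusted p = 0.38), and in striatum to Bcan, a proteoglycan of the extracellular matrix (0.35, SE 0.10, edgeR adjusted p = 0.21). Neither passed. In striatum at 6 against 0.1 mg/kg, 2 passed as higher and 1 as lower, where 2.91% of all genes passed. These calls were lost without animal 29, given 0.1 mg/kg, when 0 of 15098 genes passed in edgeR (2482 unadjusted). Bcan was 444 ± 42.1 CPM at 6 mg/kg (n = 6) and 322 ± 12.4 at 0.1 mg/kg (n = 5; log2 difference 0.46, SE 0.097, edgeR adjusted p = 0.028). Dio2, the enzyme that activates thyroid hormone, was 29.1 ± 5.02 and 50.6 ± 14.3 CPM (-0.80, SE 0.19, edgeR adjusted p = 0.036). Btbd17 was 40.99 ± 9.46 and 29.6 ± 2.89 CPM (0.47, SE 0.13, edgeR adjusted p = 0.049).

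Of the reactive astrocyte genes tested, 0 passed at 6 mg/kg against vehicle in edgeR in either region (28 tested in cortex with 4 unadjusted, 29 in striatum with 2). Ptgs2, a prostaglandin synthase that neurons also make, was lower at 6 than at 0.1 mg/kg in both regions. It was 11.5 ± 1.71 against 21.8 ± 7.91 CPM in cortex (log2 difference -0.93, SE 0.18, edgeR adjusted p = 0.034) and 1.86 ± 0.82 against 5.23 ± 1.93 CPM in striatum (-1.49, SE 0.37, edgeR adjusted p = 0.037). Against vehicle it had the smallest p of the list but did not pass (-0.52, SE 0.19, edgeR adjusted p = 0.40 in cortex, and -1.39, SE 0.39, edgeR adjusted p = 0.21 in striatum). No other gene of that list passed in these comparisons. In cortex the call was lost when only the 2 dose groups were fitted in edgeR, where 0 of 14351 genes passed (1189 unadjusted), and in striatum it was lost without animal 29.

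Markers of other cell types were read beside the striatal values at 6 mg/kg. The 10 oligodendrocyte markers summed to 7024 to 9665 CPM at 6 mg/kg and 4669 to 7075 in vehicle, and the 12 neuron markers to 5383 to 6374 and 6486 to 8060 CPM, the latter without overlap. Oligodendrocyte precursor markers summed to 454 to 528 CPM at 6 mg/kg and 366 to 427 in vehicle, also without overlap. Microglia (417 to 571 and 401 to 535 CPM) and endothelial and mural markers (288 to 335 and 292 to 313 CPM) overlapped. Blood markers summed to 42.5 to 134 CPM at 6 mg/kg and 66.1 to 529 in vehicle. Of the 3 blood markers tested, 0 had a positive log2 difference (median -1.36), and 3 were at an unadjusted p under 0.05. Ependymal and choroid plexus markers summed to 67.0 to 2533 CPM and 54.2 to 712 CPM, and all 8 had positive log2 differences (median 0.70). Striatal projection neuron markers summed to 4356 to 7550 CPM and 3640 to 7555 CPM. No gene of these lists passed against vehicle in edgeR, and their part in the values of the astrocyte genes was not tested.

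Libraries also differed in how their counts followed base composition. For each library, the deviation of every gene from its mean in that region was correlated with the GC content of its longest transcript, giving a Spearman rho called the GC slope here. In striatum the slope was 0.29 to 0.43 in the 6 libraries at 6 mg/kg, -0.32 to -0.027 at 0.1 mg/kg, -0.57 to 0.28 at 1 mg/kg and -0.41 to 0.39 in vehicle. Thus 6 and 0.1 mg/kg did not overlap in slope, whereas vehicle animals 7 and 8 lay near the 6 mg/kg libraries and animals 3 and 4 below 0. Striatal library totals were 8553800 to 9197051 counts at 6 mg/kg and 10147296 to 10459212 in vehicle.

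Members differed in how they varied with the slope, and their own GC content did not order them throughout. Over the 21 striatal libraries, after centring on dose groups, Slc27a1 (GC content 56.9%) correlated with the slope at r = 0.78 (rho = 0.72) and Aldh1l1 (54.4%) at r = 0.59 (rho = 0.54). Aqp4 (41.4%) and Gja1 (42.2%) correlated at r = -0.64 each (rho = -0.56 and -0.58). S100b (48.3%) had r = -0.58 (rho = -0.37), while Slc1a2 (45.3%, r = -0.18), Slc1a3 (45.7%, r = -0.14) and Aldoc (51.9%, r = 0.15) lay nearer 0. In cortex, however, Slc1a2 had r = -0.81, Slc1a3 -0.74 and Aldoc 0.70. Aqp4 (-0.76), Gja1 (-0.71), Aldh1l1 (0.77) and Slc27a1 (0.79) kept their signs there, whereas S100b had 0.23. Gfap, of the second highest GC content (55.5%), had r = -0.17 in striatum and 0.11 in cortex. Ntsr2 (52.4%) did not follow it in striatum (r = -0.19, rho = -0.099), but did in cortex (r = 0.64, rho = 0.71). In cortex the slope at 6 mg/kg ran from -0.59 to 0.26 and overlapped vehicle (-0.34 to 0.25), and 5 of the 6 libraries at 6 mg/kg were below 0. These are descriptions over libraries that share groups and depth.

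With an offset for GC content and length in edgeR, the striatal differences at 6 mg/kg against vehicle were 0.33 (SE 0.088) for Ntsr2 and 0.31 (SE 0.075) for Slc27a1. Aldh1l1 was 0.19 (SE 0.078), Slc1a2 -0.027 (SE 0.079) and Aqp4 -0.0046 (SE 0.12). Gfap was 0.14 (SE 0.21) and S100b 0.23 (SE 0.13). The values of Slc1a2 and Aqp4 lay near 0 under the offset. Those of Ntsr2 and Slc27a1 come from the libraries that chose these genes and are a description. The part of the GC slope in the differences was not tested beyond this offset. In cortex, Ntsr2 was 0.33 with the offset (SE 0.063, edgeR adjusted p = 0.062).

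**Figure D4:**
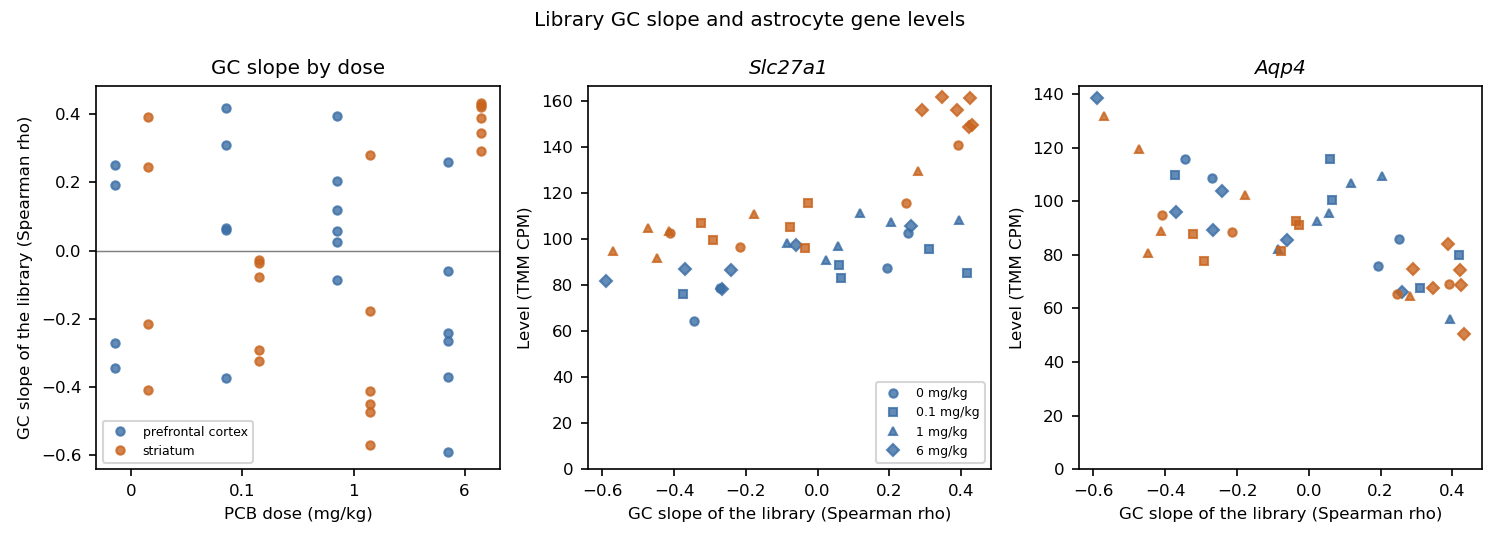
The left panel gives the GC slope of each library (Spearman rho) by dose in mg/kg, and the other panels plot the level of Slc27a1 and Aqp4 in TMM-scaled CPM against it; blue is cortex, orange striatum, and marker shapes are doses. The striatal libraries at 6 mg/kg sit together at 0.29 to 0.43, and their high Slc27a1 level is fixed by the choice of that gene.

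Members did not vary together as 1 group. In cortex, 25 of the 45 pairs of members had a positive correlation over the 21 libraries after centring on dose groups, 15 were above 0.5 and 11 below -0.5 (median r = 0.25). Aqp4, Gja1, Slc1a2 and Slc1a3, the members of lowest GC content, correlated positively with each other, and negatively with Aldoc, Aldh1l1 and Slc27a1. The lowest value was -0.78, between Slc1a2 and Aldoc, and the highest 0.93. In striatum 27 of 45 pairs were positive, 13 above 0.5 and 4 below -0.5 (median r = 0.14, range -0.63 to 0.82). Slc1a2 and Aldoc again gave the lowest value there. Gfap, in contrast to these blocks, had a positive value with all 9 other members in cortex and with 7 of 9 in striatum.

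**Figure D5:**
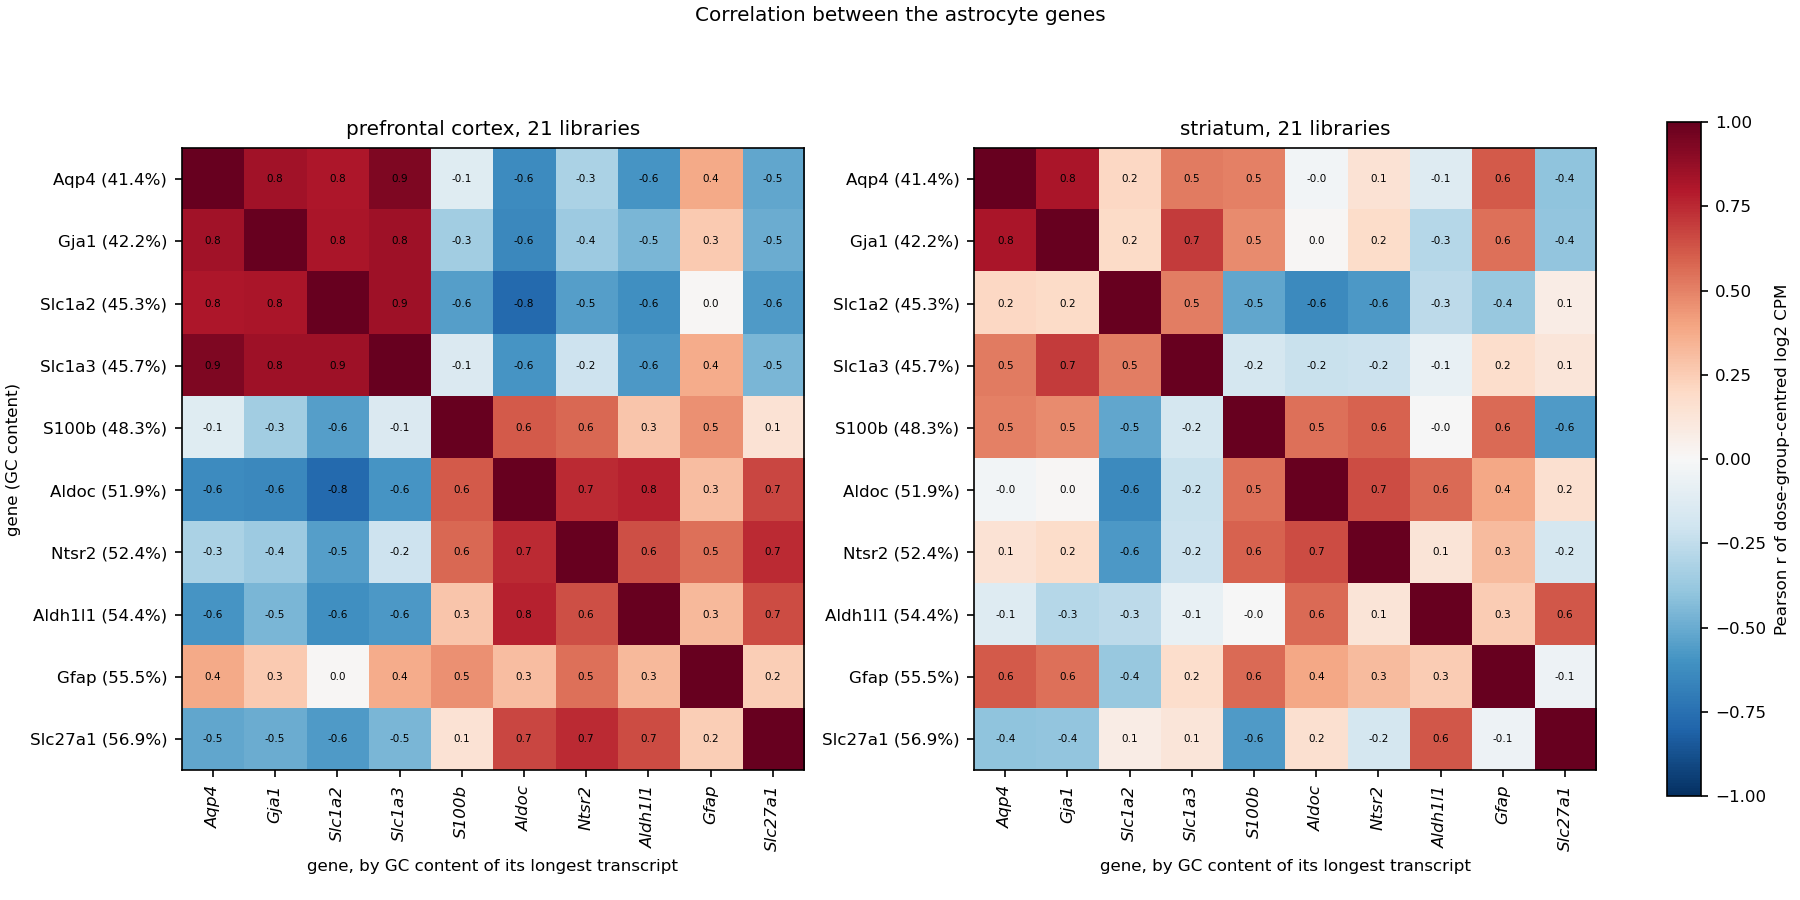
Both axes list the genes by the GC content of their longest transcript, and each cell gives Pearson's r of dose-group-centred log2 CPM over 21 libraries (cortex left, striatum right; red positive, blue negative). In cortex a red block of low-GC genes and a red block of higher-GC genes are separated by blue; in striatum the split is weaker.

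The genes most like the mean of the 8 markers within both regions were found among 10174 genes with a mean of at least 10 CPM in each. Itgb1, an integrin subunit, had the highest lower value, with r = 0.84 in cortex and 0.79 in striatum over 21 libraries each. Fgf1, a growth factor, followed with 0.76 and 0.84. Tmem47, a membrane protein, had 0.75 and 0.75. Zcchc24, a zinc finger protein, had 0.75 and 0.80. Cald1, caldesmon, had 0.78 and 0.70. Of the markers themselves, Gfap correlated at 0.84 and 0.75 with that mean, which includes it, and Aldoc at 0.014 and 0.39. Ntsr2, which is not in the mean, correlated at 0.29 in both regions, and Slc27a1 at -0.090 and -0.11.

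The whole list of endothelial and mural markers held 10 genes, none at 0. In cortex it summed to 318.8 to 347.8 CPM at 6 mg/kg and 301.2 to 318.1 in vehicle, without overlap. However, only 6 of the 10 genes had positive log2 differences (median 0.090), 2 at an unadjusted p under 0.05 and 0 past the adjusted threshold. Blood markers summed to 12.7 to 82.5 and 43.5 to 598 CPM. Of the 3 blood markers tested, 0 had a positive log2 difference (median -2.13), with 3 at an unadjusted p under 0.05 and 0 past the adjusted threshold. The 10 oligodendrocyte markers, some of whose cells also make S100b, summed to 3511 to 4100 CPM at 6 mg/kg and 2587 to 3856 in vehicle. All 10 had positive log2 differences (median 0.24), 3 at an unadjusted p under 0.05 and 0 past the adjusted threshold. The part of these lists in the cortical values of Ntsr2 and S100b was not tested.

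Whether an animal with a high value in one region also had one in the other was tested over the 21 animal numbers, after centring on dose groups. Among the 8 markers Pearson's r ran from -0.066 to 0.50, and only that of Gja1 was negative. Of these markers 0 passed adjustment, which was made over all 10 members (1 at an unadjusted p under 0.05 by permutation). S100b had the highest value, r = 0.50 (two-sided permutation p = 0.020, adjusted p = 0.20) and rho = 0.45 (permutation p = 0.043, adjusted p = 0.21). Without the 2 animals farthest from its median in cortex, r was 0.31. Slc1a2 had r = 0.39 (permutation p = 0.073, adjusted p = 0.36) and rho = 0.43 (permutation p = 0.051, adjusted p = 0.21), with r = 0.53 without the 2 farthest animals. Ntsr2 had r = -0.0067 and rho = -0.023, and Slc27a1 r = 0.27 and rho = 0.26. Both are a description with no test, because their choice used these striatal libraries.

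Liver served as a check of the markers outside the brain. Gfap, Aqp4, Slc1a3, S100b and Ntsr2 had means of at most 1.58 CPM in the vehicle and 6 mg/kg livers, and Gja1 3.41 CPM at 6 mg/kg and 4.13 in vehicle. At 1 mg/kg the means of Gfap and Aqp4 were 1.66 and 1.83 CPM, and animal 45 had 7.27 CPM of Gfap, 4.54 of Slc1a3, 3.89 of Ntsr2, 3.50 of Aqp4 and 2.08 of S100b. Aldh1l1 (897 ± 414 CPM at 6 mg/kg, n = 6, and 1259 ± 102 in vehicle, n = 4, SD) and Slc1a2 (106 ± 20.4 and 136 ± 14.6 CPM) were expressed there. Aldoc was 11.3 ± 5.21 and 14.4 ± 6.35 CPM.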

How the data were processed

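Gene counts deposited by the authors were used as given, in 1 table per tissue with Entrez identifiers. FastQC, HISAT2 and mm10 are named per the submitters' processing notes; the counting tool, its strand setting and its annotation are not given in the sources used here. Genes were filtered with filterByExpr, scaled by TMM and tested with edgeR's quasi-likelihood test (edgeR 4.0.16, R 4.3.3), with Benjamini-Hochberg adjustment over all genes and a threshold of 0.05. Each region was fitted with its 4 dose groups, the vehicle regions with their 8 libraries, and the regional difference in the 6 mg/kg effect with 20 libraries. Alternatives used DESeq2 1.42.0, sva 3.50.0, other scaling and filters, a GC content and length offset, and left-out libraries. Correlations used 100000 permutations (scipy 1.17.1). Up to 3 genes past the threshold with the smallest p were named per list, or the 1 with the smallest p where none passed, and the 5 genes most like the marker mean. The members and lists were chosen with earlier results of these data known. Titles carry a tissue letter and a number, taken as the animal. Over 14617 genes, libraries with the same number correlated above 0.1 in 12 of 21 pairs. Their mean was 0.11, against -0.023 for libraries of different numbers at the same dose. The main tests were not paired by number and treat the 2 regions of a number as independent. Pairing by number was an alternative, the replicate block.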

Additional observations from a re-analysis of the deposited data

Results flagged for a closer look

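In striatum at 6 mg/kg, animal 54 stood apart from the other 5 libraries for 2 members, with the lowest Slc1a2 level (873 CPM) and the highest S100b level (119 CPM). In cortex at 6 mg/kg, animal 55 had the highest Ntsr2 level, 137 CPM, apart from the others, and without it the log2 difference from vehicle was 0.29. These are 3 of 80 groups checked for a library far from the rest, where chance alone gives about 4. In liver, which the brain comparisons do not use, the mean Slc27a1 level was 19.9 ± 7.32 CPM in the 6 mg/kg group (SD, n = 6), against 8.09 ± 1.35 in vehicle (SD, n = 4). All 6 values lay above all 4 vehicle values (two-sided exact permutation p = 0.019, adjusted p = 0.19 over the 10 members), which does not pass the adjusted threshold.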

How the results depend on the processing

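Against 0 of 10 in the main fit, 1 member passed at 6 mg/kg against vehicle in cortex with 1 surrogate variable and with DESeq2, 1 at 6 against 0.1 mg/kg with the surrogate variable and with the GC content and length offset, and 1 in the trend with each of these 3. It was Ntsr2 each time. In striatum at 6 against 0.1 mg/kg, 3 of 8 passed with the surrogate variable (Aqp4, Aldh1l1 and Gja1), and 1, Aldh1l1, with DESeq2 and with only the 2 groups compared; 1, Aldh1l1, passed in the trend over mg/kg. Leaving out 1 animal gave 0 of the members tested in every dose comparison. Between vehicle regions, Gfap and Slc1a2 passed in each such fit (highest edgeR adjusted p = 0.019 and 0.022), and no other marker did. The main fit called 22.3% of all genes there. Ntsr2 and Slc27a1 are not counted, because vehicle striatum entered their choice. With the replicate block, Aqp4 was added to the markers passing between vehicle regions (-0.26, edgeR adjusted p = 0.027). With all 42 libraries Gfap lost its call there (adjusted p = 0.13). The cause of these changes was not tested.

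Counts over all genes moved more. In cortex, 6 mg/kg against vehicle gave 86 genes with the surrogate variable and 25 with DESeq2, against 0. At 6 against 0.1 mg/kg, 16 became 159, 129 with DESeq2, 33 with the offset and 0 with only the 2 groups (1189 unadjusted), and 3 to 44 with 1 animal left out. The trend went from 3 to 174, 82, 5 with the offset and 6 over mg/kg. DESeq2 gave 1 gene at 0.1 mg/kg against vehicle in each region. In striatum DESeq2 gave 31 genes at 6 mg/kg against vehicle, 5 at 1 mg/kg and 22 in the trend, which gave 1862 over mg/kg. At 6 against 0.1 mg/kg, 440 (251 higher, 189 lower) became 1235 with the surrogate variable, 1104 with DESeq2, 668 with the 2 groups and 58 with the offset (14 higher, 44 lower), and 0 to 442 with 1 animal left out. Vehicle regions gave 1733 to 3409 genes with 1 animal left out.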
